A study of Neogale vison with 6 samples.

Results

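The genes described here are NRAP and a set of other genes for LIM domain proteins of the actin cytoskeleton (FHL1, FHL2, FHL3, ZYX, LPP, LIMA1, PDLIM1, PDLIM5 and PDLIM7), taken from the count table by gene symbol. Of these 10 genes, 9 had a row among the 24526 genes of the table, and no row carried the symbol PDLIM5. All 9 passed the filter on low counts, which kept 12148 genes. NRAP was selected on its fold change in these same libraries, and the others were chosen beside it with their values known. Their differences between the groups are therefore given as a description, with no test of any of them, and their calls in the fit over all genes are only counted beside the share of all genes.

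The RNA came from Mv1Lu cells, an epithelial-type cell line derived from mink lung, in 6 libraries of poly(A) mRNA. The 3 control libraries came from untreated cells, and the 3 CD libraries from cells subjected to cholesterol depletion (CD). For CD, the cells were kept for 16 h with 50 µM lovastatin, an inhibitor of HMG-CoA reductase, and 50 µM mevalonate in medium containing 10% lipoprotein-deficient serum, so the statin, the mevalonate and the change of serum varied together between the groups and cannot be told apart. The labels do not say that the libraries of a group came from separate cultures, so an error or a false discovery rate (FDR) here measures the spread between libraries, which may be technical.

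A LIM domain is a double zinc finger that binds other proteins rather than DNA. LIM proteins of the cytoskeleton sit on actin filaments, Z-discs, stress fibers, focal adhesions and cell-cell junctions, and several of them are recruited to actin under tension. Many also pass into the nucleus, where they act as cofactors of transcription, and NRAP (nebulin-related anchoring protein) is known as a protein of striated muscle that helps to assemble and anchor the first myofibrils.

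Between 13473820 and 18633764 reads per library were assigned to genes, with a ratio of 1.38 between the largest and the smallest. Levels are counts per 1000000 reads (CPM) after TMM scaling, and fold changes are fitted log2 values of CD over control with their standard error (SE). This SE was derived from the edgeR test, as the absolute log2 fold change over the square root of the F statistic. It can fall under the counting error of a gene with few reads. CD replicate 3 stood apart from the other CD libraries: the chi-square per gene between its counts and theirs was 47.8 and 72.4, against 15.1 between CD replicates 1 and 2, and 15884 genes had a count in it, against 15109 and 15059. The coefficient of variation between libraries, estimated by edgeR within each group on its own, was 0.0842 for control and 0.213 for CD. The fit that gave the calls used a spread per gene that was common to both groups. The epithelial label was checked against 10 markers, of which 8 had a row (all but KRT8 and KRT18). KRT19, a keratin of simple epithelia, was present at 936 ± 66.9 CPM (SD, n = 3) in control, whereas the junction genes EPCAM, CDH1 and CLDN7 had at most 6 reads in any library. Of the other junction genes, TJP1 (ZO-1) had 2748 to 3557 reads in the control libraries and OCLN (occludin) 77 to 131. CLDN4 and DSP were low there, with 7 to 12 and 20 to 34 reads.

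NRAP mRNA was low in the control cells and abundant after CD. It was the highest of the 9 genes by fold change, followed by PDLIM7. FHL1, FHL2, ZYX and PDLIM1 were modestly higher in every CD library than in any control library, LIMA1 was lower in every CD library, and FHL3 was slightly lower in them. LPP was the single gene of the 9 whose groups overlapped. Since these are levels in bulk RNA, a change in the share of cells that express a gene cannot be told apart from a change in the RNA per cell.

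In the fit over all genes, 7 of the 9 genes passed an FDR of 0.05 by edgeR, 6 of them higher in CD and 1 lower. The corresponding shares of the 12148 genes were 47.7% called, 24.8% higher and 22.9% lower. The groups did not overlap for 8 of the 9 genes, and for 58.0% of all genes tested. The calls of FHL1 and FHL2 were absent in 10 of 13 and 9 of 14 other settings, DESeq2 among them. That of ZYX was absent without CD replicate 2, and LPP was called as higher without CD replicate 3. Because the genes were chosen by their values in this contrast, nothing is read from these counts. The median log2 fold change was 0.52 over the 9 genes and 0.06 over all genes tested.

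**Figure D1:**
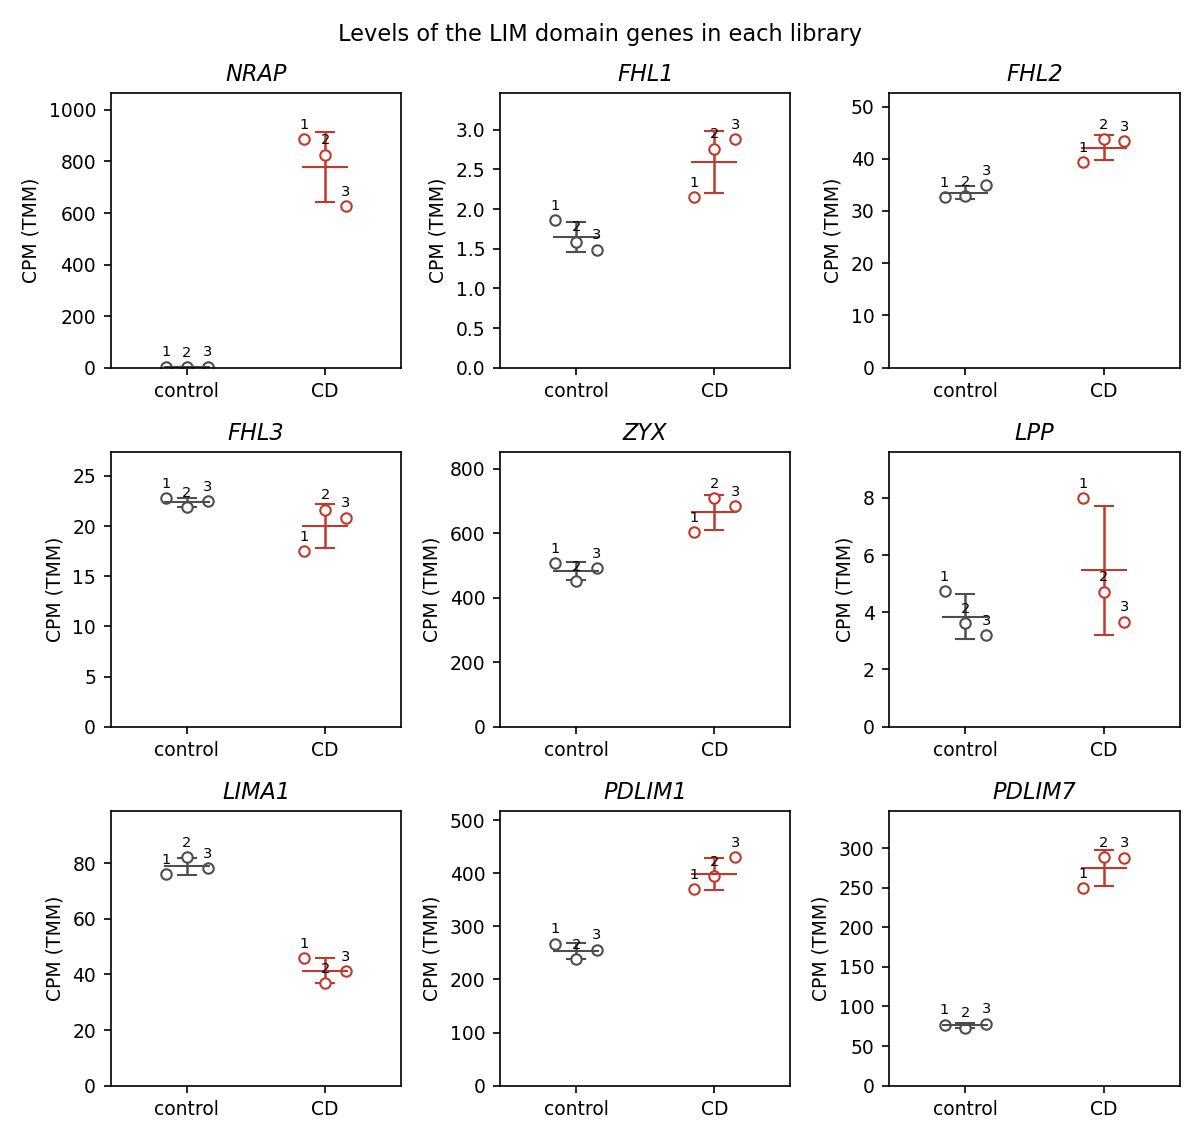
Level (CPM after TMM scaling, linear axes starting at 0) of each of the 9 LIM domain genes in the 3 control and 3 CD libraries. Each circle is a library, labelled with its replicate number, and the bars are the mean ± SD (n = 3). NRAP moved from 3.14 to 780 CPM on average, LIMA1 was lower in all CD libraries, and the LPP groups overlapped.

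NRAP (ENSNVIG00000006959), whose protein joins a LIM domain to a row of nebulin-like actin-binding repeats, had 41, 37 and 69 reads in control replicates 1 to 3. In CD replicates 1 to 3 it had 14422, 13473 and 8691 reads. Scaled for depth, these were 2.94, 2.67 and 3.80 CPM in control and 886, 827 and 626 CPM in CD. Every CD library thus lay far above every control library, with CD replicate 3 the lowest of the CD libraries. The means were 3.14 ± 0.590 CPM (SD, n = 3) in control and 780 ± 136 CPM (SD, n = 3) in CD. Relative to the control mean, the CD libraries stood 282, 263 and 199.5 times higher. The fitted log2 fold change was 7.94 (SE 0.22), and it lay between 7.84 and 8.11 when any one library was left out.

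NRAP rested on 147 reads in the control libraries together and on 36586 in the CD libraries, and its coefficient of variation between libraries was 18.8% in control and 17.5% in CD. The ratio of these sums, relative to the summed TMM-scaled library sizes, was 246, with an exact 95% interval of 209 to 291. This interval covers counting error only and takes no account of the selection of NRAP on its fold change. NRAP took 0.000318% of the reads on genes in control and 0.0792% in CD. NRAP was lower in CD replicate 3 than in the others, at 0.731 times the mean of CD replicates 1 and 2, whereas CD replicate 3 was the lowest CD library for 41.0% of all genes tested. Without that library the NRAP log2 fold change was 8.03.

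PDLIM7 (ENSNVIG00000020691), also called enigma, belongs to the PDZ-LIM proteins, which bind α-actinin or tropomyosin on actin filaments through a PDZ domain and carry kinases or other partners on their LIM domains. Its level was 76.9, 73.1 and 78.2 CPM in control replicates 1 to 3. In CD replicates 1 to 3 it was 249, 289 and 288 CPM. The groups were well apart, and the lowest CD library was CD replicate 1. The means were 76.0 ± 2.66 and 275 ± 22.6 CPM (SD, n = 3 each). The log2 fold change was 1.86 (SE 0.11), and the CD libraries were 3.28, 3.79 and 3.79 times the control mean. Leaving out single libraries gave log2 fold changes of 1.79 to 1.93.

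PDLIM1 (ENSNVIG00000001856), known as CLP36 or elfin, places α-actinin on stress fibers. It had 268, 238 and 256 CPM in control and 370, 394 and 430 CPM in CD. All 3 CD libraries were above all 3 control libraries, with a smaller step than for PDLIM7. The means were 254 ± 15.0 and 398 ± 30.2 CPM (SD, n = 3 each), and the log2 fold change was 0.65 (SE 0.11), or 0.56 without CD replicate 3. Of the other PDZ-LIM genes with a row, LMO7 was the one that could be tested. LMO7, which is found at adherens junctions, stood at 462 ± 22.7 CPM in control and was at 477 ± 42.6 CPM in CD (± SD, 3 libraries each; log2 fold change 0.05, SE 0.11, edgeR FDR 0.767). PDLIM3, whose protein is typical of muscle Z-discs, was under the filter with 0, 2 and 1 reads in control and 7, 6 and 7 reads in CD. PDLIM4 and LDB3, the latter also a Z-disc gene, had at most 5 reads in any library.

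FHL1, FHL2 and FHL3 encode proteins built almost wholly of LIM domains. FHL1 and FHL3 are prominent in skeletal muscle and FHL2 in heart, and FHL2 shuttles between focal adhesions and the nucleus. FHL1 (ENSNVIG00000001503) rested on few reads, 26, 22 and 27 in control and 35, 45 and 40 in CD. These were 1.86, 1.59 and 1.49 CPM in control and 2.15, 2.76 and 2.88 CPM in CD. The CD libraries were all higher, but CD replicate 1 was close to control replicate 1. The log2 fold change was 0.66 (SE 0.24), and leaving out single libraries gave 0.55 to 0.79.

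FHL2 (ENSNVIG00000013955) was better covered, with 454 to 713 reads per library. Its level was 32.7, 32.8 and 34.9 CPM in control and 39.3, 43.7 and 43.4 CPM in CD. The groups did not overlap, and the step between their nearest libraries exceeded the range within control. FHL2 had a log2 fold change of 0.33 (SE 0.12), or 0.28 to 0.39 with any one library left out.

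FHL3 (ENSNVIG00000013219) had 22.8, 21.9 and 22.5 CPM in control replicates 1 to 3. In CD replicates 1 to 3 it had 17.5, 21.7 and 20.8 CPM. The CD libraries were all below control, but CD replicate 2 lay just under control replicate 2, and CD replicate 1 held most of the difference. The means were 22.4 ± 0.449 and 20.0 ± 2.19 CPM (SD, n = 3 each). The log2 fold change of −0.16 (SE 0.14) was about the size of its error, and it shrank to −0.06 without CD replicate 1. Of the remaining relative, FHL5, no read was found in any library.

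ZYX and LPP are members of the zyxin family, whose proteins carry LIM domains at one end and, in zyxin and LPP, bind α-actinin and the actin-polymerising Ena/VASP proteins with the other. Zyxin moves from focal adhesions onto strained stress fibers and takes part in their repair. ZYX (ENSNVIG00000002297) had 507, 452 and 491 CPM in control and 604, 709 and 683 CPM in CD. All CD libraries were above all control libraries. The means were 483 ± 28.5 and 665 ± 54.7 CPM (SD, n = 3 each). The log2 fold change was 0.46 (SE 0.12). The lowest value with a library left out was 0.38, without CD replicate 2.

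LPP (ENSNVIG00000020508), a relative of zyxin at focal adhesions and cell-cell contacts, was counted with 50 to 130 reads per library. Its level was 4.73, 3.61 and 3.20 CPM in control and 7.99, 4.72 and 3.67 CPM in CD. The groups overlapped: CD replicate 1 was the highest library of all, while CD replicates 2 and 3 lay within the control range. LPP had a log2 fold change of 0.52 (SE 0.30). It ranged from 0.15 without CD replicate 1 to 0.69 without CD replicate 3.

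Of the other genes of the zyxin family, 4 could be tested, and 3 of them were lower in CD, as were 22.9% of all genes. AJUBA, a junction protein that restrains LATS kinases of the Hippo pathway, fell from 226 ± 25.1 to 91.0 ± 16.5 CPM (± SD, 3 libraries each; log2 fold change −1.31, SE 0.15, edgeR FDR 8.92e-05). TRIP6, its relative at focal adhesions, fell from 115 ± 5.67 to 52.7 ± 6.66 CPM (log2 fold change −1.12, SE 0.13, edgeR FDR 6.96e-05). WTIP, of the same branch as AJUBA, fell from 12.7 ± 1.35 to 4.29 ± 0.903 CPM (log2 fold change −1.56, SE 0.21, edgeR FDR 0.000198). FBLIM1, which links filamin to integrin adhesions, did not pass (log2 fold change 0.48, SE 0.25, edgeR FDR 0.135). LIMD1 had 1 read in all 6 libraries together.

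LIMA1 (ENSNVIG00000005697) encodes EPLIN, which bundles actin filaments, slows their depolymerisation and links the cadherin-catenin complex to actin at epithelial junctions. Its level was 76.2, 82.2 and 78.2 CPM in control replicates 1 to 3. In CD replicates 1 to 3 it was 45.8, 36.9 and 41.1 CPM. Every CD library was well below every control library, and LIMA1 was the lowest of the 9 genes by fold change. The means were 78.8 ± 3.06 and 41.3 ± 4.49 CPM (SD, n = 3 each). The log2 fold change was −0.93 (SE 0.12), and it stayed between −1.00 and −0.89 when single libraries were left out.

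**Figure D2:**
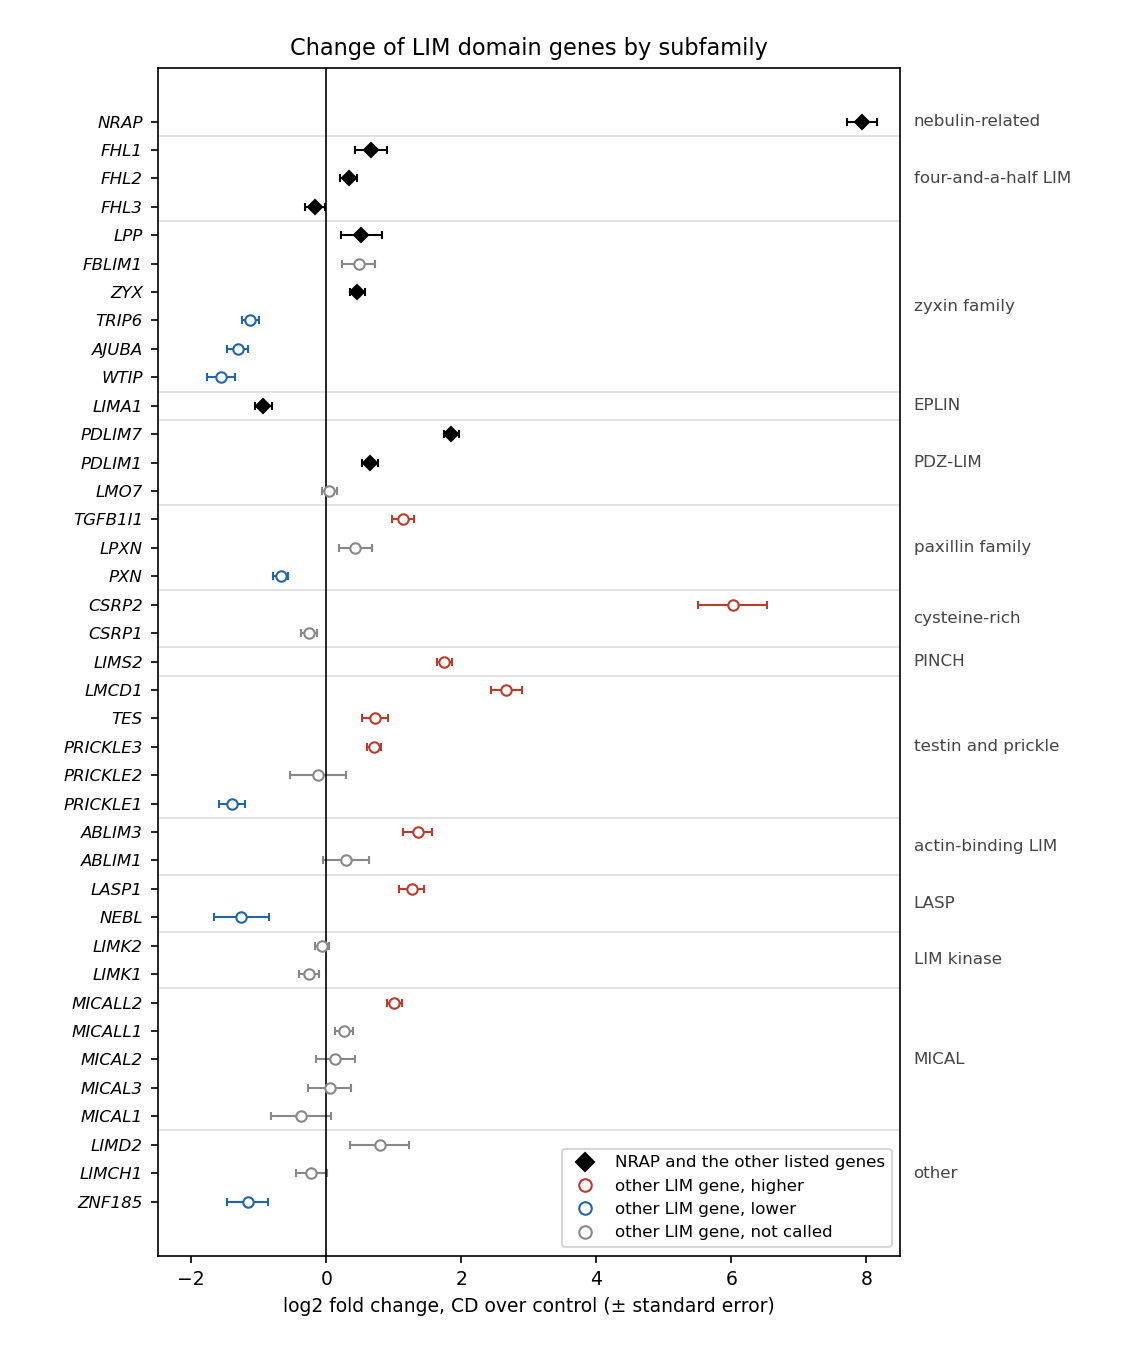
Fitted log2 fold change (CD over control, ± SE) of the 9 LIM domain genes (black diamonds) and of 30 of the 31 further LIM genes of the cytoskeleton (open circles, colored by their edgeR call at an FDR of 0.05), grouped by subfamily. NRAP lies furthest right at 7.94, followed by CSRP2 at 6.02, and the zyxin family has ZYX at 0.46 and WTIP at −1.56.

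The 9 genes were set beside 43 further genes for LIM proteins of the cytoskeleton, of which 39 had a row and 31 could be tested. Of these, 10 were higher in CD, 7 lower and 14 did not pass the edgeR test, so 54.8% were called, against 47.7% of all genes. Their median log2 fold change was 0.13. The list moved in both directions, and the largest increase was in CSRP2, a small LIM protein of smooth muscle and of the actin cytoskeleton. CSRP2 had 0, 1 and 3 reads in control and 76, 90 and 115 reads in CD. The ratio of these sums, relative to the TMM-scaled library sizes, was 69.5, with an exact 95% counting interval of 26.8 to 257 (fitted log2 fold change 6.02, SE 0.50, edgeR FDR 1.06e-05). The counting interval is wider than this SE implies. The fitted value ran from 5.53 without control replicate 1 to 7.11 without control replicate 3. The relative CSRP1 stood at 362 ± 16.2 CPM in control and was at 303 ± 37.3 CPM in CD (log2 fold change −0.26, edgeR FDR 0.109), and CSRP3, the muscle LIM protein, had at most 1 read per library.

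Beyond CSRP2, the genes that rose included LMCD1, a cofactor of transcription in heart (log2 fold change 2.67), and ABLIM3, an actin-binding LIM protein (1.36). LIMS2, a PINCH protein that binds integrin-linked kinase, rose from 64.9 ± 0.729 to 217 ± 17.3 CPM (± SD, 3 libraries each; log2 fold change 1.75, SE 0.11, edgeR FDR 1.75e-06). LASP1, which shares nebulin-like repeats with NRAP, rose by 1.27 (SE 0.19, edgeR FDR 0.000354), and NEBL, the other nebulin relative tested, fell by 1.26 on 3 to 13 reads per library (SE 0.41, edgeR FDR 0.0275). The call for NEBL was absent in 6 of 13 other settings. Within the paxillin family, PXN, a scaffold of focal adhesions, fell from 462 ± 43.4 to 289 ± 11.1 CPM (log2 fold change −0.67, edgeR FDR 0.00091), whereas TGFB1I1 (Hic-5) rose from 14.8 ± 1.66 to 32.6 ± 4.27 CPM (1.14, edgeR FDR 0.000291).

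The LIM genes differed in how CD replicate 3 stood to the other CD libraries. It was the lowest CD library for 2 of the 9 genes (NRAP and LPP, the latter at 0.578 times the mean of CD replicates 1 and 2) and for 16 of the 31 further LIM genes. Over all genes tested it was the lowest for 41.0%. MICAL2 and MICAL3, oxidases that disassemble actin filaments, were at 0.421 and 0.380 times that mean, and ABLIM1 at 0.358 times. Without CD replicate 3, 6 of the 9 genes were called (5 higher and 1 lower), LPP among them but not FHL1 or FHL2. So were 22 of the 31 further LIM genes (14 higher and 8 lower), and calls over all genes tested were then 58.6%. Without CD replicate 2, 4 of the 9 genes and 41.0% of all genes were called.

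**Figure D3:**
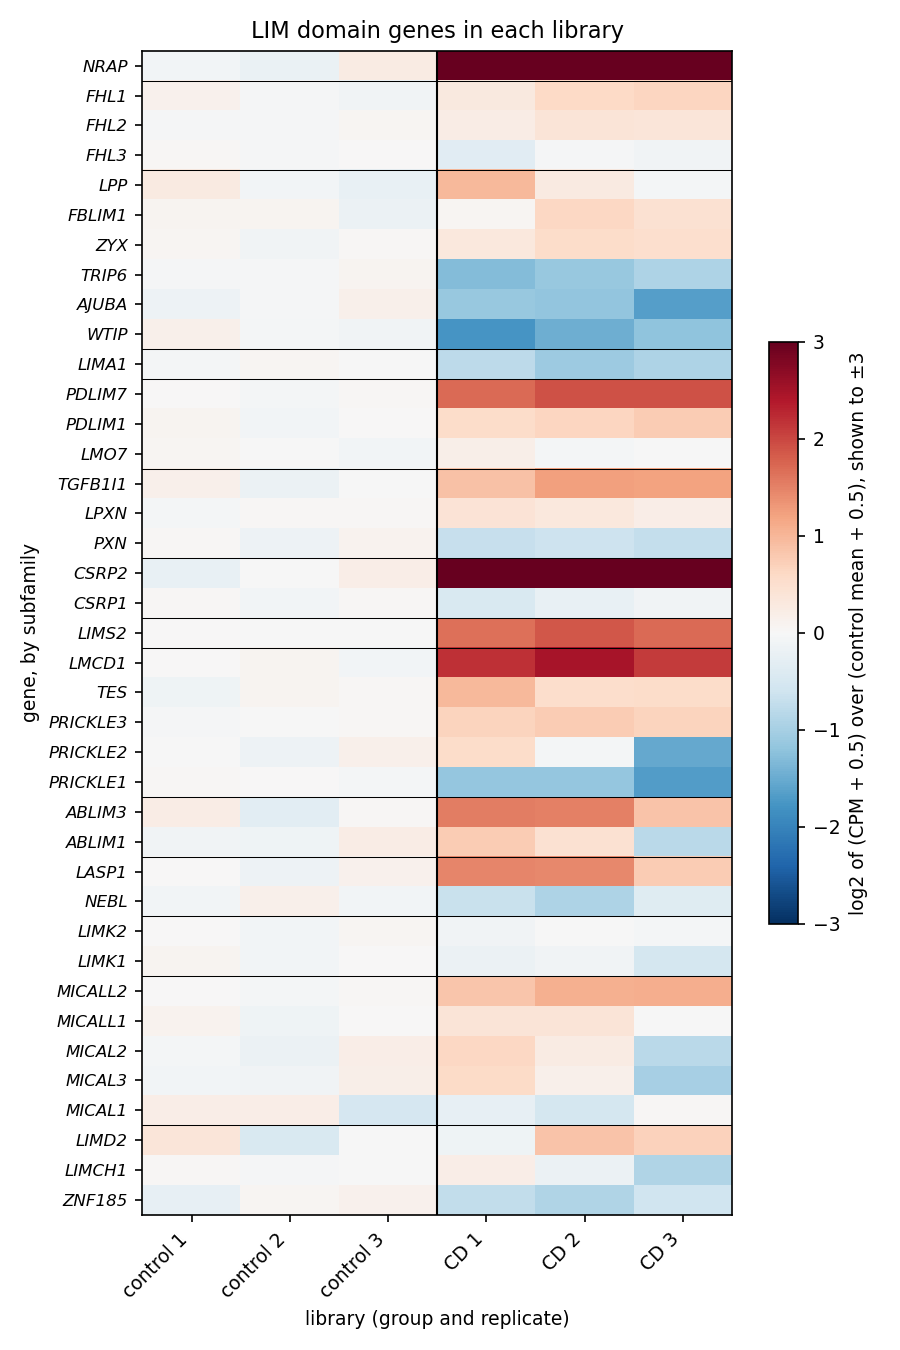
Level of the same 9 and 30 LIM domain genes in each library relative to their control means, as log2 of (CPM + 0.5) over (control mean + 0.5), with red for higher and blue for lower and colors shown to ±3. NRAP and CSRP2 are dark red in all 3 CD libraries, LIMA1, TRIP6, AJUBA and WTIP are blue in all of them, and MICAL2, MICAL3 and ABLIM1 are red in CD replicate 1 and blue in CD replicate 3.

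The proteins that NRAP, zyxin, the PDZ-LIM proteins and their relatives bind were examined next, as a list of 20 genes of which 16 could be tested. Of these, 2 were higher in CD, 1 was lower and 13 did not pass (18.8% called, against 47.7% of all genes), with a median log2 fold change of −0.13. ILK, the integrin-linked kinase, rose from 201 ± 10.3 to 329 ± 21.6 CPM (± SD, 3 libraries each; log2 fold change 0.71, SE 0.11, edgeR FDR 0.000479). CTNNA1 (α-catenin), the partner of EPLIN at junctions, rose from 152 ± 4.02 to 248 ± 47.1 CPM (0.70, SE 0.15, edgeR FDR 0.00294). ACTN1, the α-actinin of stress fibers to which zyxin and PDLIM1 bind, fell from 689 ± 36.3 to 525 ± 53.0 CPM (−0.39, SE 0.12, edgeR FDR 0.0212). The call for ACTN1 was absent in 3 of 14 other settings.

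Of the partners typical of muscle, KLHL41, MYPN, SYNPO2 and NEB had at most 6 reads in any library, whereas ACTN2, the α-actinin of Z-discs, stood at 3.80 ± 0.518 CPM in control and was at 2.75 ± 0.242 CPM in CD (log2 fold change −0.48, SE 0.21, edgeR FDR 0.0893). Among partners that muscle and other cells share, VCL (vinculin) stood at 175 ± 12.2 CPM in control and was at 131 ± 48.2 CPM in CD (log2 fold change −0.42, edgeR FDR 0.176). TLN1 (talin) stood at 909 ± 127 and 642 ± 176 CPM (−0.50, edgeR FDR 0.0641), and it passed the threshold as lower in 5 of 14 other settings. CD replicate 3 was the lowest CD library for 12 of the 16 partners, with a median of 0.682 times the other CD libraries. Over all genes tested these values were 41.0% and 0.994. Without CD replicate 3, 8 of the 16 partners were called (5 higher and 3 lower), with 58.6% of all genes called. Without CD replicate 1, 6 partners were called (2 higher and 4 lower), with 48.6% of all genes called.

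The markers of striated muscle, the tissue in which NRAP is mainly known, moved in both directions. Of 33 markers, 31 had a row and 10 could be tested, of which 3 were higher in CD (MYH6, MYOM2 and TNNI3) and 3 lower (TNNI2, MYBPC3 and ACTC1). These 6 were 60.0% of those tested, against 47.7% of all genes, and the call for MYBPC3 was absent in 3 of 13 other settings, DESeq2 among them. Their summed level was 39.4 to 41.4 CPM in the control libraries and 32.6 to 39.5 CPM in the CD libraries. The list was unevenly present: MYL1, MYL2, TNNT3, TNNC1 and SMPX had no read in any library and ACTA1 and CKM at most 3, whereas ACTC1 (cardiac actin) had 221 to 391 reads and TNNT2 (cardiac troponin T) 46 to 81 reads per library. DES (desmin), under the filter, had 3, 0 and 3 reads in control and 14, 11 and 9 reads in CD. The highest of the called markers was MYH6, a cardiac myosin, with 3, 5 and 6 reads in control and 17, 16 and 13 in CD (log2 fold change 1.67, SE 0.34, edgeR FDR 0.00263). The lowest was TNNI2, a troponin of fast muscle, which fell by 1.64 (SE 0.24, edgeR FDR 0.000345) on 15 to 71 reads.

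**Figure D4:**
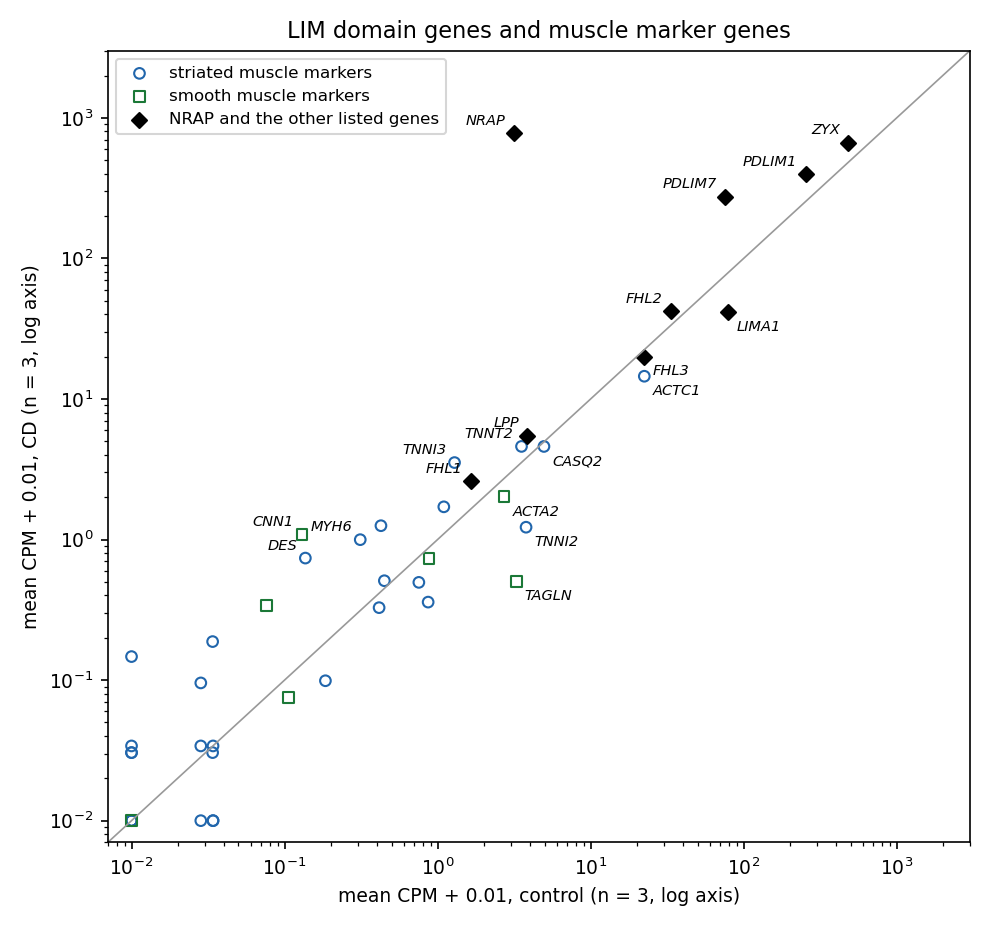
Mean level in control (x) against CD (y), as CPM + 0.01 on log axes (n = 3 each), for the 9 LIM domain genes (black diamonds), 31 striated muscle markers (blue circles) and 7 smooth muscle markers (green squares). The diagonal marks equal levels. NRAP stands at 3.14 and 780 CPM, far above the diagonal, whereas ACTC1 stands under it.

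Markers of smooth muscle, fibroblasts and epithelium were also examined. Called were 2 of 4 smooth muscle markers tested, 3 of 4 fibroblast markers and 3 of 5 epithelial markers, against 47.7% of all genes. Of 7 smooth muscle markers, 4 could be tested: CNN1 (calponin) rose by 3.20 on 0 to 19 reads per library (2.52 without control replicate 3 and 3.93 without control replicate 1), TAGLN fell by 2.69, and the summed level was 6.67 to 7.52 CPM in control and 4.06 to 5.33 CPM in CD. Of 6 fibroblast markers, 4 could be tested, and the collagen genes COL3A1, COL1A1 and COL1A2 fell (−1.72, −0.93 and −0.37, the last with its call absent in 6 of 14 other settings), with a summed level of 303 to 379 CPM in control and 179 to 228 CPM in CD. The untested fibroblast genes had few reads, with 1, 2 and 4 for LUM in control and 9, 14 and 12 in CD, and 0, 1 and 2 for DCN in control and 1, 8 and 6 in CD, and with no filter on low counts 1 fibroblast marker was called higher, with 33.6% of all genes called. Of the epithelial markers, 5 could be tested: CLDN4 and DSP rose (3.55 and 1.46) and KRT19 fell by 1.03, with a summed level of 1092 to 1217 CPM in control and 590 to 674 CPM in CD, most of it from KRT19. The part of these markers in the levels of the LIM genes was not tested.

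Genes for muscle transcription factors and for the SRF pathway, known regulators of cytoskeletal and muscle genes, were listed together. With all libraries, the muscle factors moved in both directions and no gene of the SRF pathway passed. Of the 12 listed regulators with a row, 7 could be tested, and 2 were higher, 1 lower and 4 did not pass (42.9% called, against 47.7% of all genes). MEF2C rose from 3.16 ± 0.717 to 9.65 ± 0.283 CPM (± SD, 3 libraries each; log2 fold change 1.60, SE 0.21, edgeR FDR 0.000185). MEF2A rose from 19.9 ± 2.28 to 39.3 ± 17.2 CPM (0.99, SE 0.28, edgeR FDR 0.0147), with its call absent in 2 of 14 other settings. TEAD4, a DNA-binding partner of YAP, fell from 48.0 ± 0.9998 to 27.7 ± 1.63 CPM (−0.80, SE 0.12, edgeR FDR 0.000445). SRF and its co-activators MRTFA and MRTFB did not pass (log2 fold changes −0.20, −0.12 and −0.52, edgeR FDR 0.309, 0.541 and 0.393). The value for MRTFB rested on single libraries, running from −1.16 without CD replicate 1, where it passed (edgeR FDR 0.046), to −0.12 without CD replicate 3. The factors of skeletal muscle MYOD1, MYOG, MYF5 and MYF6, and the SRF co-activator MYOCD, had at most 1 read in any library. Of the 7 regulators, 5 were called without CD replicate 1 and 2 without control replicate 2 or 3, where 48.6%, 38.6% and 35.9% of all genes were called.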

How the data were processed

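RNA-seq of 3 control and 3 CD libraries was analysed, with groups from the labels. The authors deposited raw counts per gene of the mink assembly. Per the methods and the submitters' processing notes, reads were trimmed with fastp 0.20.1, aligned with STAR 2.7.2a and compared with DESeq2 1.30.1 in R 4.0.3. The counting program and its strand setting are not given in the sources used here, so counts of overlapping, antisense and near-identical genes are uncertain. The 4 rows that name no gene, holding 29.3 to 47.2% of the reads, were left out. The authors' normalized values per library were not used, because the identifiers beside them did not match those of the count table.

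Counts were fitted with edgeR 4.0.16 in R 4.3.3 over all 6 libraries, with group as the only term (TMM scaling, filterByExpr with a minimum count of 10 and total of 15, robust quasi-likelihood test), and adjusted over all genes tested by Benjamini-Hochberg, with calls at an FDR of 0.05. The procedure was tested on simulated data. Replicate libraries were compared by chi-square per gene (lowest 9.23), and none was a copy of another. The median SE of a log2 fold change was 0.18. Alternatives were DESeq2 1.42.0, limma 3.58.1 (voom), other scalings and filters, a replicate block, an FDR of 0.01 and leaving out each library.

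The genes and lists were chosen with earlier results of these data known. List genes with no row under their current symbol were matched by another symbol (FBLIM1 and PDLIM3 among them) or by the row's description (PXN and MRTFA among them). Named are all the chosen genes, the called members of each list with the highest and lowest fold change, members that a count needs, and the 5 genes whose log2(CPM + 1) had the highest Pearson r with NRAP. Further LIM, partner and marker genes were named after their values were seen. Single values of a few list genes are not reported here.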

Additional observations from a re-analysis of the deposited data

How the results depend on the processing

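The log2 fold changes of the 9 LIM domain genes kept their direction in every setting tried. With 1 library left out, the count of these genes called by edgeR was 4 to 7 (7 with all libraries, 4 without CD replicate 2), that of the binding partners 2 to 8 (3 with all; 8 without CD replicate 3) and that of the regulators 2 to 5 (3 with all; 5 without CD replicate 1), while 4410 to 7222 of all genes were called. With a minimum of 50 counts in 3 libraries, 2 of 4 striated muscle markers were called in place of 6 of 10, with 49.8% of all genes called, and none of the smooth muscle markers, 0 in place of 2, since none passed that filter. The correlations of same-numbered libraries' deviations from their group means were −0.02, −0.44 and −0.21. The labels give no pairing, and so few values cannot decide whether same-numbered libraries share a culture or a batch. A replicate block gave 5408 calls over all genes in place of 5800 and 5 of the 9 LIM genes in place of 7. At an FDR of 0.01, 4042 genes and 5 of the 9 were called. DESeq2 called 5676 genes and 5 of the 9. Other scalings moved the median of all genes by at most 0.03 (log2). Depth limits FHL1 and CSRP2, and the spread between CD libraries limits LPP.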

Other observations

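The genes whose levels followed NRAP most closely over the 6 libraries, by Pearson r of log2(CPM + 1), were RHOB (r = 0.9997), CABLES1 (0.9995), BMF (0.9994), RMC1 (0.9994) and FDFT1 (0.9994). RHOB, a small GTPase, stood at 80.9 ± 6.28 CPM in control and reached 1415 ± 98.4 CPM in CD (SD, n = 3 each; log2 fold change 4.13). BMF, a BH3-only protein, stood at 8.56 ± 0.321 and 76.2 ± 7.90 CPM. FDFT1, squalene synthase, stood at 112 ± 7.14 and 505 ± 16.1 CPM. In all, 250 of 10080 genes with a symbol had r above 0.99 with NRAP. The 6 points fall into 2 groups of 3 libraries that share a treatment, so these values are a description with no test.

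The genes nearest to the chosen LIM genes were read from a RefSeq gene table of another mink assembly (ASM_NN_V1), which held no entry for NRAP or LPP. They are the nearest protein-coding genes on each side with a unique symbol in the count table. No limit was set on distance, so they need not be directly adjacent. For the other 8 symbols, PDLIM5 included, it gave 32 neighbours with a count row, of which 21 could be tested. Of these, 3 rose (DBN1 and NCK2 among them) and 5 fell (LMNB1, HELLS, CASP2, ALDH18A1 and SF3A3) by edgeR (38.1% called, against 47.7% of all genes), with a median log2 fold change of −0.03. Both neighbours of PDLIM7 that passed went opposite ways: DBN1, an actin-binding protein, rose by 1.32 (SE 0.12, edgeR FDR 2.17e-05), and LMNB1, a lamin, fell by 2.73 (SE 0.12, edgeR FDR 2.46e-07).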
